A study of Mus musculus with 8 samples.

Results

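The genes described here are 34 interferon-stimulated genes, a module of antiviral and immune effector genes, measured in haematopoietic stem cells of mouse bone marrow after the interferon inducer pIpC. They were taken from a list of gene names that was chosen with earlier results of these data known. They make up 34 of the 53715 genes in the count files. All 34 names matched exactly 1 gene identifier. The stem cells were sorted as LSK CD48- CD150+ cells, and each library came from the total RNA of such a sort. The 4 wild-type mice and the 4 mice labelled Gata2; Mx1-Cre heterozygote were all 8 to 12 weeks old and had all received 6 doses of pIpC. The labels name Mx1-Cre in the heterozygotes alone, without stating whether the wild-type mice carried it. Gata2 encodes a GATA-family transcription factor of stem and progenitor cells, and Mx1-Cre is a recombinase transgene under the interferon-responsive promoter of Mx1, so the same agent that switches on the transgene also switches on the genes described here. All 8 mice analysed here had received pIpC. The levels below are therefore levels after pIpC, and how far pIpC raised them cannot be measured from these libraries. The labels do not state how long after the last dose the cells were sorted. The comparison that the design allows is whether the module stood at another level in the heterozygote-labelled mice than in wild-type mice given the same doses. In bulk RNA, fewer cells that carry a transcript and less of it per cell cannot be told apart.

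Double-stranded RNA such as pIpC is detected by endosomal and cytosolic sensors, which drive the production of type I interferons. These bind a receptor made of Ifnar1 and Ifnar2, whose kinases Jak1 and Tyk2 pass the signal on. Stat2 and Irf9 are parts of the factor that binds interferon-stimulated response elements in the promoters of the genes described here. In the bone marrow, interferon and pIpC are known to draw dormant haematopoietic stem cells into cycle for a time.

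The libraries held between 16750778 and 22861884 counted fragments. Of the 53715 genes, 13992 had enough counts to be tested between genotypes. Gata2 itself stood at 35.8 ± 7.65 CPM (counts relative to library size, on the usual CPM scale, with TMM factors; SD, n = 4) in the wild-type libraries and at 44.8 ± 12.2 CPM (n = 4) in the heterozygote-labelled libraries. Its log2 fold change was 0.33 (standard error 0.23), with 0.858 as the adjusted p from edgeR's quasi-likelihood test, so whole-gene counts did not check the genotype label, and every direction below follows the labels. The stem cell markers Kit, Procr and Slamf1 were present in all 8 libraries. Of the markers of other cell types, 5 of 8 for T and NK cells (Cd3e, Cd3g and Trac among them), 2 of 6 for B cells (Pax5 among them) and 4 of 8 for plasmacytoid and dendritic cells (Siglech and Ccr9 among them) were at 0 in all 8. Others were counted, with Cd79b of the B cell list at 119 ± 11.6 and 113 ± 10.5 CPM and Nkg7 of the T and NK cell list at 310 ± 86.6 and 398 ± 94.6 CPM (wild type, then heterozygote label; SD, n = 4 each). Klrb1c, a natural killer cell receptor, stood at 4.97 ± 1.05 and 1.04 ± 1.34 CPM without overlap, and its part in the values below was not tested. Counts of neutrophil markers were present, and the summed level of the 6 tested ran from 68.3 to 190 CPM in wild-type libraries and from 51.5 to 185 CPM in heterozygote-labelled libraries. The 7 monocyte and macrophage markers summed to between 1.65 and 10.4 CPM in wild-type and between 0.918 and 3.11 CPM in heterozygote-labelled libraries. Adgre1 and Cd14 had 153 and 64 counts in wild-type replicate 1, 67 and 34 in wild-type replicate 3, and 0 elsewhere. Csf1r was counted in all 8 libraries, with 2 to 24 counts. The part of these markers in the values below was not tested.

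Many member promoters carry the letters of the element that interferon-activated factors are known to bind. RefSeq windows of build GRCm38.p6, from 250 bases before to 50 bases after the annotated start, were available for 24 of the 34 members, a few of which have more than 1 annotated start. The core of the interferon-stimulated response element was searched on both strands as GAAA, any 2 bases and GAAA again, which reads TTTC, any 2 bases and TTTC on the other strand. It was present in at least 1 window of 12 of the 24 members (50%), against 3.99% of the 27025 genes in the table counted the same way. All 12 had a match upstream of the start, where 3.46% of all genes had one. Counted by window, 3.44% of the 32851 windows in the table held it. The stretches around the matches are printed because they show how the same short core recurs in genes of different families. Each is read in the direction of its gene, with capitals marking the matched core letters and lower case marking the flanks.
Isg15: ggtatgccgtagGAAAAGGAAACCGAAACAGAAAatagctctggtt
Ifit1: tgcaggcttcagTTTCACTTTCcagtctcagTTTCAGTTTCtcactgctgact
Ifit3: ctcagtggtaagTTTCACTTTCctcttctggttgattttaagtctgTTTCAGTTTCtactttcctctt
Ifit3b: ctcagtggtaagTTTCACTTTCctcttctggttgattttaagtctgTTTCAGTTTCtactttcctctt
Oas1a: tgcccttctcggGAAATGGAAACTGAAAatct
Oas3: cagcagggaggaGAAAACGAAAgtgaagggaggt
Gbp2: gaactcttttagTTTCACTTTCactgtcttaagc
Igtp: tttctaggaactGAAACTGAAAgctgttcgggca
Bst2: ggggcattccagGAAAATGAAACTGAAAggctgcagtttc
Trim30a: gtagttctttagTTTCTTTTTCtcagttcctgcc

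The Isg15 stretch lies at chr4:156200863-156200908 on the minus strand and holds 3 overlapping matches. The Ifit1 stretch lies at chr19:34640773-34640825 on the plus strand with 2 separate matches. The Ifit3 stretch at chr19:34583361-34583428 and the Ifit3b stretch at chr19:34607757-34607824 were identical over 68 of 68 bases. The Oas1a stretch lies just before its start, at chr5:120907526-120907557 on the minus strand, and Bst2 had 2 overlapping matches at chr8:71537575-71537614 on the minus strand. The other stretches lie at chr5:120777713-120777746 for Oas3 and chr7:104465208-104465241 for Trim30a, both on the minus strand, and at chr3:142620592-142620625 for Gbp2 and chr11:58199510-58199543 for Igtp, both on the plus strand. Rsad2 and Gbp3 were the remaining members with a match. The core of the gamma-activated sequence, searched as TTCNNNGAA (the same on both strands), was found in windows of 6 of the 24 members (25%), namely Ifit2, Oas1a, Igtp, Samhd1, Adar and Bst2, against 9.55% of all genes in the table and 8.3% of its windows. Oas1a, Igtp and Bst2 hold both cores. These are matches of letters in a window and not measured binding. The 12 members with the response element core had a median level of 72.8 TPM (the level relative to gene length and to the library's total) and a median log2 fold change between genotypes of 0.09. The 12 without it in the window had medians of 23.6 TPM and 0.17.

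**Figure D1:**
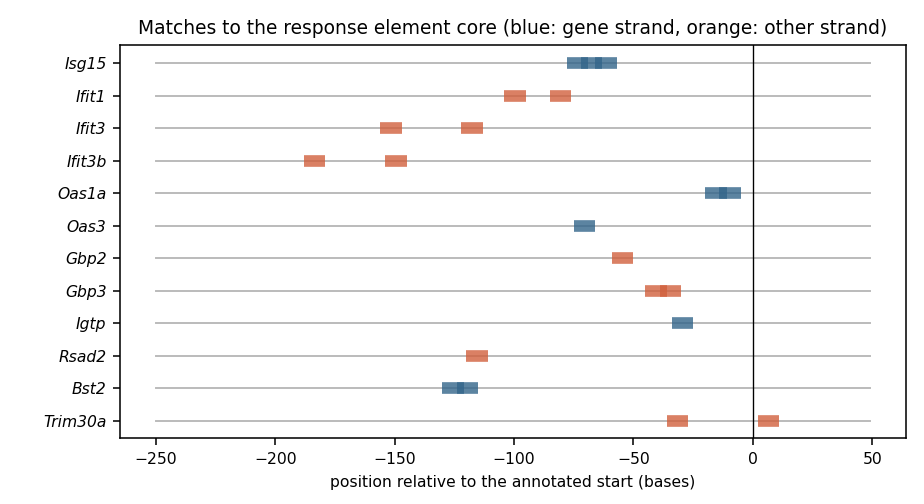
Positions of matches to the response element core in the 12 member promoters that hold one, in bases from the annotated start (x axis, start at 0); grey lines are the windows searched and the colour gives the strand. All 12 genes have a match upstream of the start, and Trim30a has a further match just downstream of it.

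The module was well expressed in stem cells of both genotypes. The 31 tested members had a median level of 30.1 TPM, against 9.75 TPM over all 13992 tested genes, and 24 of them lay above that overall median. Their median stood at percentile 70.6 of the tested genes. The range was wide, from 532 TPM for Iigp1 to 1.80 TPM for Adar among tested members. Iigp1, Igtp, Bst2, Rtp4 and Gbp2 were the 5 members above the 90th percentile of 137 TPM, and together they made up 65.5% of the summed TPM of the 34 genes. In each of the 8 libraries Iigp1 and Igtp lay above all other members, and Mx1 was at 0, as the plot of levels by library shows.

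**Figure D2:**
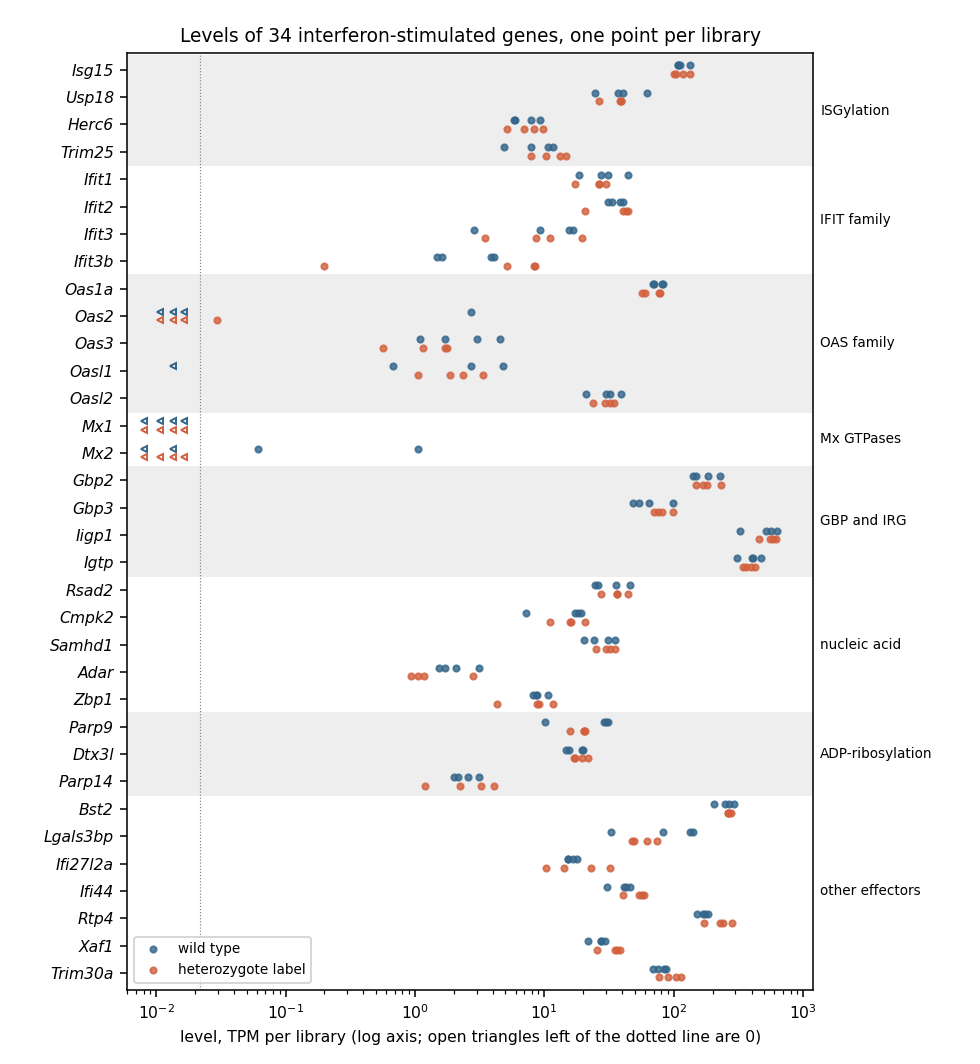
Level of each of the 34 genes in each library, in TPM on a log axis; each point is 1 library, blue for wild type and orange for the heterozygote label, and open triangles left of the dotted line are libraries at 0. Levels run from 0 for Mx1 in all 8 libraries to between 327 and 628 TPM for Iigp1.

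Replicates of the same genotype differed in these genes about as much as in all tested genes at 10 CPM or above, and somewhat less below it. Genes were split at that mean level only and were not matched by level within each part. Among the 24 members with a mean of at least 10 CPM, the median within-group SD of log2 CPM was 0.307, against 0.311 over 7812 genes at that level. Among the 7 tested members below 10 CPM the SD was 0.758, against 0.892 over all tested genes below that level. The 4 members with the widest spread over the 8 libraries, Oasl1, Ifit3b, Ifit3 and Oas3, were among these 7, and Lgals3bp came next at a far higher level.

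None of the 31 tested members passed the threshold of an adjusted p of 0.05 between genotypes. edgeR's quasi-likelihood test called 0 of the 31, where it called 0.0% of all 13992 genes. At an unadjusted p under 0.05 it gave 2 members, Rtp4 and Ifi44, which is 6.45% of the members against a background of 5.66% of all genes. Both were higher (2 of 31, against 2.37% of all genes) and 0 members were lower (against 3.29%). DESeq2 called 0 members, against 0.514% of the genes it tested, and gave 3 at an unadjusted p under 0.05 against 6.05%. The limma-voom test called 0 members, against 0.0%, and gave 3 unadjusted against 10.1%. The adjusted p of the members ran from 0.850 to 0.997 in edgeR. The estimates were positive for 23 of the 31 members (74.2%), where 48.0% of all genes had a positive estimate, and negative for 8. Their median log2 fold change was 0.15, against -0.02 over all tested genes. When libraries were scaled by their size alone, these values were 19 of 31, 0.08 and -0.08, and 41.3% of all genes were positive. Only Bst2 had all 4 heterozygote-labelled libraries above all 4 wild-type libraries (1 of 31, or 3.23%, against 1.65% of all genes), and no member had them all below (against 1.82%). In either direction, 3.47% of all genes were without overlap.

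**Figure D3:**
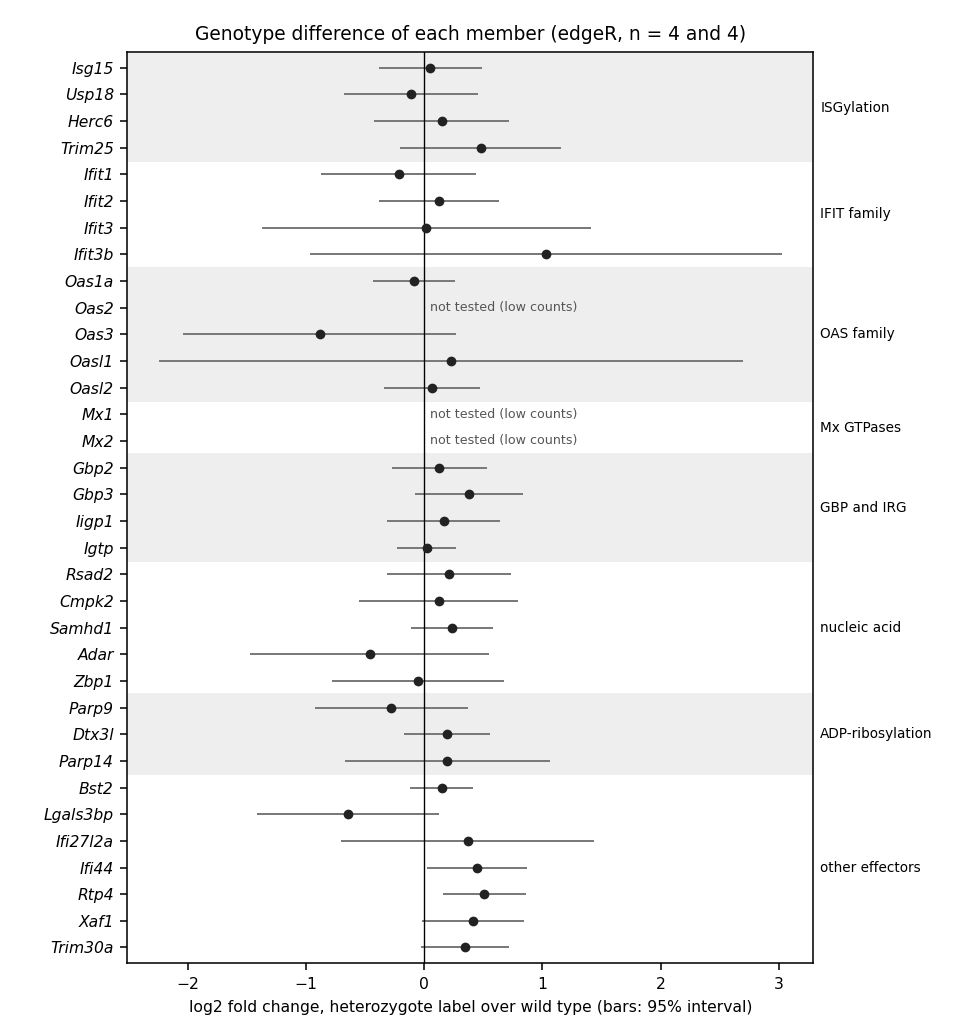
Log2 fold change of each tested member, heterozygote label over wild type, with its 95% interval from edgeR's fit (n = 4 and 4); the vertical line marks no difference. Of the 31 intervals, only those of Rtp4 and Ifi44 leave out 0, before any adjustment for the number of genes tested.

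The intervals bound how large a difference could have gone unseen. For 22 of the 31 members the 95% interval of the fold change left out both a doubling and a halving, and for 8 it lay within 1.5-fold in either direction. Igtp was among the tightest, with a fold of 1.02 and an interval from 0.854 to 1.21. Ifit3b was among the widest, with a fold of 2.04 and an interval from 0.511 to 8.16.

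The ISG15 pathway attaches a small ubiquitin-like protein, Isg15, to other proteins. It was represented by Isg15, by Usp18, which removes Isg15 and restrains signalling at the interferon receptor, by Herc6, the mouse ligase for Isg15, and by Trim25, a ubiquitin ligase. Isg15 measured 29.1, 28.1, 41.8 and 33.3 CPM across wild-type replicates 1 to 4, against 29.1, 40.1, 32.2 and 35.8 CPM across heterozygote-labelled replicates 1 to 4. Its groups overlapped across almost their whole range, with means of 33.1 ± 6.24 and 34.3 ± 4.74 CPM (SD, n = 4 each) and a log2 fold change of 0.05 with a standard error of 0.19. Usp18 measured 62.1, 35.6, 28.8 and 45.1 CPM across the wild-type libraries, against 42.1, 42.8, 44.6 and 29.5 CPM in the others. Wild-type replicate 1 was the highest library for Usp18, and the log2 fold change was -0.11 with a standard error of 0.25. By level, Isg15 led the group at 114 TPM, followed by Usp18 at 38.5, Trim25 at 10.1 and Herc6 at 7.39 TPM. Trim25 had a log2 fold change of 0.48 with a standard error of 0.30, and Herc6 one of 0.15 with a standard error of 0.26. Of the exon bases of Herc6, 13.7% are shared with another annotated gene on the same strand, and fragments in that stretch were not counted.

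The Ifit genes encode tetratricopeptide proteins that bind foreign RNA and hold back its translation. The 4 members lie next to each other within chr19:34550694-34650009 (GRCm38), a span of 99.3 kb. Ifit2 and Ifit1 had mean levels of 36.4 and 27.7 TPM, with log2 fold changes of 0.12 ± 0.23 (standard error) and -0.22 ± 0.29. Ifit3 measured 10.5, 5.58, 11.3 and 1.98 CPM across wild-type replicates 1 to 4, against 2.30, 13.5, 7.85 and 6.04 CPM across the heterozygote-labelled replicates. Ifit3b measured 1.16, 1.02, 3.25 and 3.26 CPM across the wild-type libraries, against 0.15, 6.61, 6.93 and 4.09 CPM in the others. Heterozygote-labelled replicate 1 was thus the lowest library for Ifit3b while replicates 2, 3 and 4 were above all wild-type libraries, so this group lay on both sides of wild type. The log2 fold change of Ifit3b was 1.03 with a standard error of 0.89, and that of Ifit3 was 0.02 with a standard error of 0.62. The estimate of Ifit3b was the largest positive one in edgeR, but it was 0.27 in limma-voom and 0.51 with the replicate number as a block, below Oasl1 at 0.78 and 0.90. It was 0.83 without wild-type replicate 1, below Oasl1 at 1.10. Ifit3 and Ifit3b are near-identical neighbours, and fragments that map to both were left out of the counts, so the values of the pair are uncertain. Their summed level was 5.24 to 14.5 CPM for wild type against 2.45 to 20.1 CPM in heterozygote-labelled libraries, the second range enclosing the first.

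The Oas genes encode enzymes that make 2′-5′-linked oligoadenylates in response to double-stranded RNA, while Oasl1 and Oasl2 encode related proteins. Oas1a, Oas2 and Oas3 lie within chr5:120730333-120907521, and Oasl1 and Oasl2 lie within chr5:114896936-114937915. Levels within this family spanned a wide range. Oas1a at 71.7 TPM and Oasl2 at 30.2 TPM were well expressed, Oasl1 at 2.10 TPM and Oas3 at 1.95 TPM were low, and Oas2 at 0.341 TPM fell under the filter on low counts. Oas1a was among the steadiest members, with 53.8 ± 1.45 CPM for wild type against 50.7 ± 8.09 CPM for the heterozygote label (SD, n = 4 each). Oas3 measured 11.5, 7.43, 3.21 and 4.76 CPM across wild-type replicates 1 to 4, against 4.81, 1.59, 3.33 and 4.86 CPM across the heterozygote-labelled replicates. Its 2 highest libraries were wild-type replicates 1 and 2, and the other 6 libraries overlapped. The log2 fold change of Oas3 was -0.88 with a standard error of 0.52 and an adjusted p of 0.850 in edgeR. It was the largest negative estimate among the members, but without wild-type replicate 1 it was -0.48, behind Adar at -0.57. Oasl1 measured 4.51, 2.43, 0 and 0.705 CPM across the wild-type libraries, against 1.85, 1.10, 3.55 and 2.46 CPM in the others, so that the wild-type mice alone ran from 0 to the highest value of all. Oas2 had 104 counts in wild-type replicate 1, 1 count in heterozygote-labelled replicate 1, and 0 in the other 6 libraries.

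The Mx genes encode dynamin-like antiviral GTPases, and Mx1 is the gene whose promoter drives the Cre transgene. Mx1 had 0 counts in all 8 libraries. At the depth of these libraries, a limit of 3 counts allows up to 0.0915 to 0.126 TPM of Mx1 per library, for counting error only. Mx2 had 27 counts in wild-type replicate 2, 2 counts in wild-type replicate 4, and 0 in the other 6. Oas2, Mx2 and Oasl1 thus each had libraries at 0 beside libraries of the same genotype with counts, a pattern that was not seen in members of higher level. No test was made for Mx1, Mx2 and Oas2, which did not pass the filter.

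The guanylate-binding and immunity-related GTPases, which act against intracellular pathogens at their vacuoles, included the most abundant members. Iigp1 alone reached a mean of 532 TPM, rank 332 of all tested genes, and Igtp, which encodes a regulatory member of the family, reached 391 TPM at rank 474. Iigp1 measured 636, 353, 676 and 777 CPM across wild-type replicates 1 to 4, against 665, 764, 741 and 571 CPM across the heterozygote-labelled replicates. The lowest library was wild-type replicate 2 and the highest was wild-type replicate 4, so the heterozygote-labelled mice lay inside the wild-type range. Igtp measured 341, 285, 261 and 323 CPM and then 331, 321, 298 and 280 CPM in the same order, again with full overlap. Gbp2 measured 128, 197, 194 and 147.4 CPM for wild type against 173, 233, 172 and 150 CPM in heterozygote-labelled libraries. The log2 fold changes were 0.17 for Iigp1, 0.02 for Igtp, 0.13 for Gbp2 and 0.38 for Gbp3, with standard errors of 0.21, 0.11, 0.18 and 0.20. None of the 4 passed the test. The estimate of Iigp1 became -0.0100 without wild-type replicate 2, that of Gbp2 -0.013 without heterozygote-labelled replicate 2, and that of Igtp -0.042 without wild-type replicate 3 and -0.044 under scaling by library size alone. Of the exon bases of Igtp, 8.01% are shared with Irgm2.

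Enzymes and a sensor that act on nucleotides or nucleic acids formed the next group. Rsad2 (viperin, which makes a chain-terminating nucleotide) and its neighbour Cmpk2 (a mitochondrial nucleotide kinase) run in opposite directions within chr12:26442746-26479837. They had levels of 34.6 and 15.6 TPM and log2 fold changes of 0.21 ± 0.24 and 0.12 ± 0.30 (standard errors). Samhd1, which degrades deoxynucleotides, had a level of 29.0 TPM, 94.1 ± 15.9 CPM for wild type against 111 ± 14.3 CPM for the heterozygote label (SD, n = 4 each), and a log2 fold change of 0.24 ± 0.15. Zbp1, a sensor of left-handed nucleic acids that triggers cell death, was at 8.76 TPM with -0.05 ± 0.33. Adar edits adenosine to inosine in double-stranded RNA. It measured 4.96, 5.88, 5.17 and 10.1 CPM across wild-type replicates 1 to 4, against 8.67, 3.43, 3.87 and 3.02 CPM across the heterozygote-labelled replicates. In Adar 3 of the 4 heterozygote-labelled libraries were the lowest of the 8 while replicate 1 was the next to highest, and the log2 fold change was -0.46 with a standard error of 0.45. Leaving out wild-type replicate 4 gave -0.17, and leaving out heterozygote-labelled replicate 1 gave -0.92.

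Parp9, Dtx3l and Parp14 act in ADP-ribosylation, with Parp9 and Dtx3l forming a complex that couples it to ubiquitin. The genes lie within chr16:35832874-35972605, and Parp9 on the plus strand and Dtx3l on the minus strand have annotated 5′ ends 681 bases apart. Parp9 measured 50.4, 52.0, 20.5 and 57.3 CPM across wild-type replicates 1 to 4, against 37.8, 39.5, 31.4 and 40.0 CPM across the heterozygote-labelled replicates. Dtx3l measured 40.8, 38.8, 37.3 and 33.3 CPM and then 38.0, 44.6, 50.5 and 38.8 CPM. Wild-type replicate 3 was far below the other 3 wild-type libraries for Parp9 and among them for Dtx3l. The log2 fold change was -0.28 ± 0.29 for Parp9, 0.19 ± 0.16 for Dtx3l and 0.20 ± 0.39 for the low-level gene Parp14 at 2.59 TPM (standard errors). That of Parp9 was -0.52 without wild-type replicate 3 and -0.14 without wild-type replicate 4.

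The remaining 7 members act at membranes, are secreted, or have other effector roles, and they held the smallest unadjusted p-values of the module. Rtp4, a receptor transporter protein with antiviral activity, measured 141, 111, 154 and 143 CPM in wild-type replicates 1 to 4. It measured 231, 146.7, 207 and 196 CPM in heterozygote-labelled replicates 1 to 4. Apart from heterozygote-labelled replicate 2, which lay within the wild-type range, the heterozygote-labelled libraries were above all wild-type libraries. The means were 137 ± 18.5 and 195 ± 35.5 CPM (SD, n = 4 each), a fold of 1.42 with a 95% interval from 1.11 to 1.82. The unadjusted p of Rtp4 was 0.00944 and its adjusted p was 0.850 in edgeR, and the exact two-sided permutation test of this single gene gave 0.0571, where the smallest value possible with 70 assignments is 0.0286. The log2 fold change of Rtp4 ran from 0.43 to 0.63 over the alternatives tried. Of its exon bases, 13.9% are shared with another annotated gene on the same strand.

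Ifi44, a cytoplasmic interferon-induced protein, measured 93.8, 64.2, 117 and 99.4 CPM for wild type against 133, 144, 100 and 133 CPM in heterozygote-labelled libraries. The groups overlapped through heterozygote-labelled replicate 3 and wild-type replicate 3, with a fold of 1.36 (interval 1.02 to 1.83) and an adjusted p of 0.850 in edgeR. Xaf1, which promotes apoptosis, measured 46.1, 35.4, 53.3 and 54.3 CPM and then 62.5, 67.9, 73.8 and 47.7 CPM. Its 3 highest libraries were heterozygote-labelled, and its log2 fold change was 0.41 with a standard error of 0.19. Trim30a, a ring-finger protein that restrains inflammatory signalling, measured 111, 98.5, 145 and 142 CPM and then 164, 188, 150 and 128 CPM. Its log2 fold change was 0.34 with a standard error of 0.17, and heterozygote-labelled replicate 4 lay inside the wild-type range. None of these passed the adjusted threshold.

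Bst2 (tetherin), which holds budding virus particles at the cell surface, measured 87.1, 91.6, 93.8 and 73.8 CPM for wild type against 95.5, 95.3, 96.8 and 95.9 CPM in heterozygote-labelled libraries. The groups did not overlap, but the gap between them was 95.3 against 93.8 CPM, and it closed when libraries were scaled by size alone. The fold of Bst2 was 1.11 with an interval from 0.922 to 1.33, and edgeR gave it a p of 0.242 before adjustment and 0.871 after. The exact permutation p was 0.0286, the smallest this design can give. Any gene whose groups do not overlap gets that value, so it restates the lack of overlap and adds no further evidence. Lgals3bp, a secreted glycoprotein that binds galectins, measured 145, 132, 39.0 and 93.7 CPM for wild type against 80.7, 54.1, 56.6 and 71.0 CPM in heterozygote-labelled libraries. Here wild-type mice gave both the highest and the lowest value, with means of 102 ± 47.5 and 65.6 ± 12.5 CPM (SD, n = 4 each) and a log2 fold change of -0.64 with a standard error of 0.35. Without wild-type replicate 1 it was -0.42, and without wild-type replicate 3 it was -0.91. Once each library's GC trend was taken out it was also -0.42, and GC makes up 55.8% of Lgals3bp against a median of 48.96% over tested genes. Ifi27l2a, a small interferon-induced gene, was steady in wild-type mice at 2.83 ± 0.0720 CPM and stood at 3.66 ± 1.83 CPM in the others (SD, n = 4 each), a log2 fold change of 0.37 with a standard error of 0.48. Without heterozygote-labelled replicate 4 it was 0.036, and without heterozygote-labelled replicate 2 it was 0.58.

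**Figure D4:**
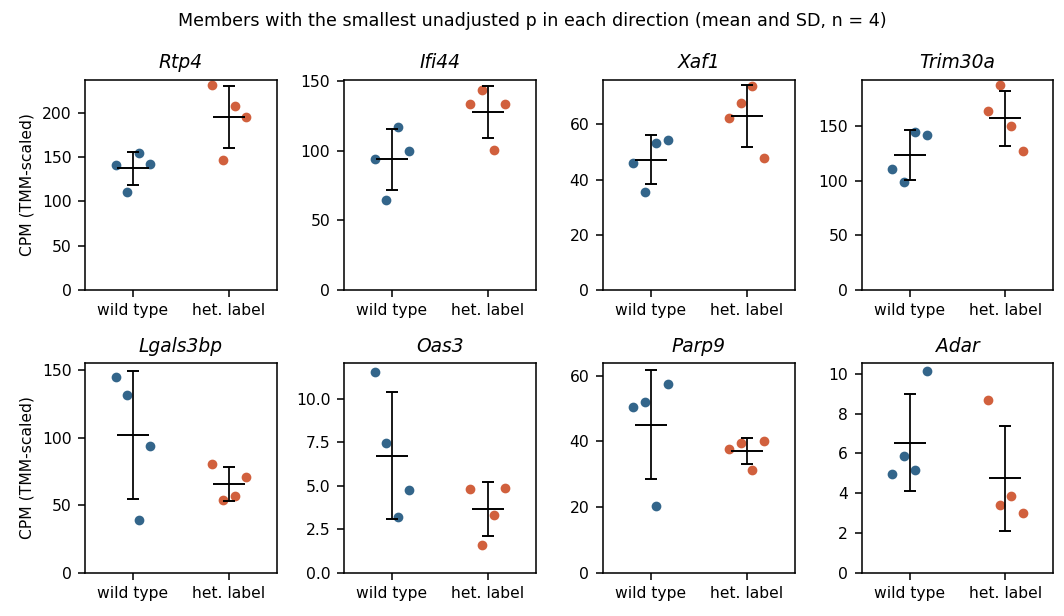
TMM-scaled CPM of the 4 members with the smallest unadjusted p in each direction (top row, higher in the heterozygote-labelled libraries; bottom row, lower); points are libraries, bars the mean and SD (n = 4), and axes start at 0. The groups of each gene overlap, and Lgals3bp and Oas3 spread most within wild type.

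Added up, the 7 genes of this effector group ran from 535 to 626 CPM for wild type against from 677 to 770 CPM in heterozygote-labelled libraries, without overlap. Scaled by library size alone, the same sums were 572 to 662 and 660 to 767 CPM and overlapped. The sums of the other 6 families with tested members overlapped between genotypes under TMM scaling too. The sum over all 31 tested members was 2385 ± 230 CPM for wild type against 2652 ± 130 CPM for the heterozygote label (SD, n = 4 each), a ratio of 1.11, with overlap between 2475 and 2564 CPM. Other measures had estimates in either direction between the same mice, and none of them passed the adjusted threshold in edgeR. The reference transcript Actb measured 8754 ± 1511 and 11637 ± 1796 CPM (SD, n = 4 each). Its log2 fold change was 0.41 with a standard error of 0.15 and an adjusted p of 0.850 in edgeR, while Gapdh, Tbp, Hprt and Ppia had -0.29, 0.15, 0.05 and 0.09. The summed megakaryocyte and platelet markers (7 of 7 tested) ran from 641 to 945 CPM for wild type against from 488 to 787 CPM in heterozygote-labelled libraries. Of these markers, 6 of 7 had negative estimates, against 52.0% of all tested genes. Vwf (without overlap) and Itga2b had unadjusted p of 0.0025 and 0.0169 in edgeR, with an adjusted p of 0.850 for both. DESeq2 called 1 of the 7, against 0.514% of the genes it tested. The summed erythroid markers (6 of 7 tested) ran from 39.6 to 78.9 and from 22.5 to 55.4 CPM, and 5 of the 6 estimates were negative. The part of these differences in the values of the module was not tested.

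No single mouse carried the module as a whole up or down. Of the 31 tested members, 7 were highest in wild-type replicate 1, 7 in heterozygote-labelled replicate 2, and 6 in each of heterozygote-labelled replicates 3 and 4. Wild-type replicate 3 was the lowest library for 10 members and wild-type replicate 2 for 7, while heterozygote-labelled replicate 3 was lowest for 0. Averaged over the 31 members, the deviation from each gene's mean on the log2 scale was 0.14, -0.11, -0.24 and -0.02 in wild-type replicates 1 to 4. It was -0.07, 0.05, 0.17 and 0.09 in heterozygote-labelled replicates 1 to 4. The 2 groups overlapped in this average, since wild-type replicate 1 exceeded 3 of the 4 heterozygote-labelled libraries. Within the module the families did not move together either, as the heat map of deviations shows: wild-type replicate 3 was the lowest library for Oasl1, Oasl2, Parp9 and Lgals3bp and the highest for Isg15. Wild-type replicate 3 and heterozygote-labelled replicate 3 also had the highest summed neutrophil markers of their groups, at 190 and 185 CPM. S100a8 led these sums at 91.7 and 87.8 CPM, while Elane (2.15 and 1.64 CPM) and Mpo (0 and 0.218 CPM) were low there. Averaged over the list on the log2 scale, the deviation was instead highest in wild-type replicate 2 (0.57) and heterozygote-labelled replicate 1 (1.00). None of this was tested as a source of the member values.

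**Figure D5:**
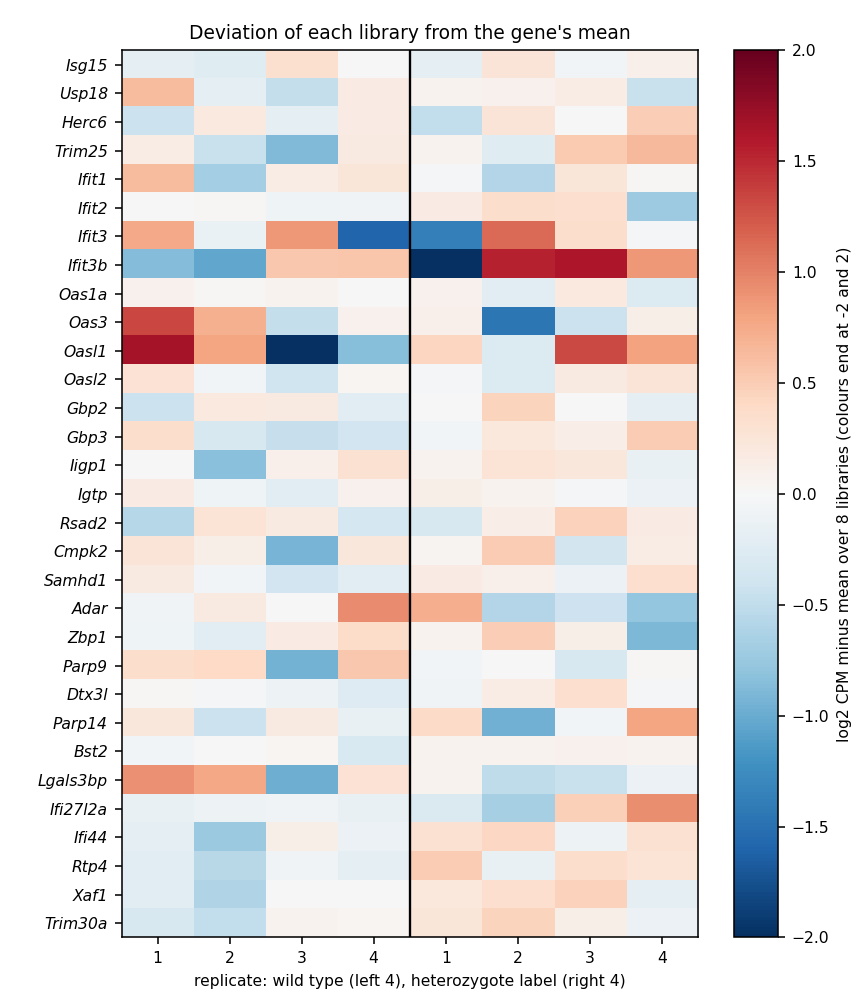
Deviation of each library (columns; wild type left of the line, heterozygote label right) from the mean of each tested member (rows), in log2 CPM, with colours ending at -2 and 2. The strongest colours are in the low-level genes Ifit3, Ifit3b, Oas3 and Oasl1, and no column has 1 colour throughout.

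The machinery upstream of the module was read from lists of other pathway genes. Of 17 receptors, kinases and factors, 3 had positive and 14 negative estimates (52.0% of all tested genes were negative), with a median log2 fold change of -0.18, and 0 passed the edgeR test, with 1 at an unadjusted p under 0.05. DESeq2 and limma-voom also called 0, with 1 and 2 unadjusted. Over all genes, 5.66%, 6.05% and 10.1% had such a p in edgeR, DESeq2 and limma-voom. The gene with the smallest p was Irf1, a transcription factor of the interferon response, at 34.04 ± 6.28 CPM for wild type against 22.6 ± 3.59 CPM for the heterozygote label (SD, n = 4 each), without overlap. Its log2 fold change was -0.59 with a standard error of 0.21 and an adjusted p of 0.850 in edgeR. Stat2 had a log2 fold change of -0.88 ± 0.53, the feedback inhibitor Socs1 one of -2.13 ± 1.37 from very low counts, and Ifngr2, a chain of the interferon-gamma receptor, one of 0.25 ± 0.17 (standard errors). Of the factor that binds the response element, Irf9 stood at 70.03 TPM and Stat2 at 2.62 TPM. Irf7, which amplifies interferon production, stood at 4.29 TPM.

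Among 8 sensors and adaptors of double-stranded RNA, 2 estimates were positive and 6 negative (52.0% of all tested genes were negative), with a median of -0.14. All 3 tools called 0 of the 8. Each had 1 at an unadjusted p under 0.05, against 5.66%, 6.05% and 10.1% of all genes in edgeR, DESeq2 and limma-voom. Mavs, the mitochondrial adaptor of the cytosolic sensors, measured 16.7 ± 8.89 CPM for wild type against 7.76 ± 3.17 CPM for the heterozygote label (SD, n = 4 each), a log2 fold change of -1.11 ± 0.46 (standard error). Its unadjusted p was 0.0369 and its adjusted p 0.850 in edgeR. Ddx58 (RIG-I) and Dhx58 had log2 fold changes of -0.21 and -0.54. The 12 interferon ligand genes looked at, among them Ifnb1, Ifna1, Ifna2 and Ifna4, were at 0 in all 8 libraries. The effector genes were thus counted in libraries in which none of these 12 transcripts was. Fragments that map to several places were left out of the counts, so these zeros do not show that the transcripts were absent.

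Further genes known to respond to interferon had estimates in both directions. Of 54 tested, 33 estimates were positive and 21 negative (48.0% of all tested genes were positive), with a median of 0.10. edgeR, DESeq2 and limma-voom called 0 of them and had 3, 4 and 6 at an unadjusted p under 0.05, where 5.66%, 6.05% and 10.1% of all genes had such a p. Those with the smallest p were Phf11d at 0.79 ± 0.27, the checkpoint ligand Cd274 at -0.88 ± 0.31, Tor3a at -0.42 ± 0.17, and Ifi213 at 2.59 ± 1.35 from very low counts (log2 fold change and standard error). Among 11 genes of MHC class I presentation and the immunoproteasome, 4 were positive and 7 negative (against 52.0% of all tested genes) with a median of -0.06. The same tools called 0 of these and had 1, 2 and 2 unadjusted, against the same shares of all genes as above. There H2-D1 had -0.64 ± 0.26, the peptide transporter genes Tap1 and Tap2 had -0.72 ± 0.34 and -0.86 ± 0.46, and Psmb10 had -0.22 ± 0.11.

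The Ly6 and Ifitm genes encode interferon-responsive surface and membrane proteins. They had 5 positive and 2 negative estimates (48.0% of all tested genes were positive) with a median of 0.15. Ifitm1, a membrane protein that blocks virus entry, measured 741 ± 98.4 CPM for wild type against 1007 ± 46.2 CPM for the heterozygote label (SD, n = 4 each), without overlap. Ly6a, which encodes Sca-1 and so belongs to the sort itself, measured 96.5 ± 17.6 and 139 ± 13.2 CPM, also without overlap. The log2 fold changes were 0.44 ± 0.11 for Ifitm1 and 0.53 ± 0.15 for Ly6a (standard errors), with unadjusted p of 0.0021 and 0.0057 and an adjusted p of 0.850 for both in edgeR. DESeq2 called Ifitm1 (adjusted p 0.0278) and not Ly6a (0.104), and limma-voom called neither (adjusted p 0.442 for both). Over all genes, DESeq2 called 0.514% of those it tested, and 3.47% were without overlap in either direction. At an unadjusted p under 0.05, edgeR, DESeq2 and limma-voom each had 2 of the 7 genes, against 5.66%, 6.05% and 10.1% of all genes. The summed level of the 7 genes ran from 2305 to 2619 CPM for wild type against from 2727 to 3032 CPM in heterozygote-labelled libraries, and these ranges stayed apart under scaling by library size. Ifitm3 had a log2 fold change of 0.15 ± 0.10 and Ly6c1, at very low counts, one of 0.76 ± 1.27.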

How the data were processed

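Per the file headers, the deposited values are raw fragment counts per gene, made by the authors with featureCounts in reverse-stranded mode on GENCODE M17 gene models and not normalized. The submitters' processing notes name Trim Galore, cutadapt and STAR 2.5.1b, with GRCm38 as the build. The headers name featureCounts 1.6.2 and the notes 1.5.1, which was not resolved. With the options those headers list, fragments mapping to several places or same-strand genes were not counted, and the labels name no molecular identifiers that would mark PCR copies, so limits from counts cover counting error only. Totals ran from 16750778 to 22861884.

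Symbols came from GENCODE M21, which named 53620 of the 53715 identifiers. Genes were kept by filterByExpr, TMM factors lay between 0.946 and 1.08, and edgeR 4.0.16 in R 4.3.3 fitted robust quasi-likelihood models with genotype as the only term. Two-sided p-values received Benjamini-Hochberg adjustment across all 13992 genes, and calls needed an adjusted p under 0.05. CPM and TPM were computed from the counts, TPM with the gene lengths in the files, and log2 CPM carries a prior count of 2. Each library came from another mouse, and p-values measure the spread between mice. The labels do not say if mice were littermates. All pairs of libraries differed by more than sampling noise (lowest chi-square per degree of freedom 35.4). DESeq2 1.42.0 and limma 3.58.1 (voom), other scalings and filters, a replicate block, a sex term (2 female and 2 male mice per genotype by Xist and Y-linked genes) and each library left out were alternatives, and removal of the GC trend was chosen after seeing the data.

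The members and lists were chosen with earlier results of these data known. All members are named. Values in every library are given for the 5 members of highest level, the 4 of smallest unadjusted p in each direction, the 4 of widest spread (where the mean reached 1 CPM), and Isg15, Usp18, Mx1 and Ifit3b, and values of Dtx3l are given beside its neighbour Parp9. Of each pathway list, up to 4 genes with the smallest unadjusted p are named, though some of these are not reported here, and Irf9, Irf7 and the cell markers were added for their levels. The procedure was tested on simulated data of 13992 genes, with 4 libraries against 4. There edgeR called 22.7% of genes changed 2-fold, 54.7% of those changed 4-fold and 0.0218% of unchanged genes. DESeq2 called 36.3%, 65% and 0.249%. The changed genes were drawn at random from all tested genes, at every level, so these rates are not those of the members. A 2-fold change in a gene drawn this way was missed more often than called.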

Additional observations from a re-analysis of the deposited data

Results flagged for a closer look

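Each group of 4 libraries was looked at for a library set far apart from the other 3, in 62 groups of tested members, and 4 were found, where chance gives about 1 in 20. Usp18 in heterozygote-labelled replicate 4 was lowest, at 4.89 log2 CPM where the other 3 lay between 5.40 and 5.48. Ifit3b in heterozygote-labelled replicate 1 was lowest, at -2.01 log2 CPM against 2.07 to 2.81. Cmpk2 in wild-type replicate 3 was at 3.66 log2 CPM against 4.71 to 4.85, and Parp9 in the same library was at 4.36 against 5.66 to 5.84. That 2 of the 4 fall in wild-type replicate 3 was not tested.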

How the results depend on the processing

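Under every alternative run, 0 members were called between genotypes. DESeq2 called 79 genes over all genes, none of them a member, where edgeR and limma-voom called 0. The median log2 fold change of the members was 0.081 and the members without overlap were 0 under scaling by library size alone. Estimates near 0 changed sign: Ifit2 to -0.0048 and Igtp to -0.016 in limma-voom, Isg15 to -0.0020, Ifit3 to -0.043, Oasl2 to -0.0059 and Igtp to -0.044 under library size alone, Ifit3 to -0.12 with a term for sex, and Oas1a to 0.014 and Zbp1 to 0.016 with the GC trend removed. The cause was not tested. Over 17 alternatives, 17 of the 31 members kept their direction and side of the threshold and 14 changed sign in at least 1.

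With each library left out in turn, the median of the members ran from 0.11 to 0.19, the positive members from 19 to 24 and the members at an unadjusted p under 0.05 from 1 to 5, the 5 without wild-type replicate 3. The log2 fold changes that changed sign ran from -0.032 to 0.18 for Isg15, -0.26 to 0.13 for Usp18, -0.0064 to 0.32 for Herc6, -0.44 to 0.33 for Ifit3, -0.19 to 1.10 for Oasl1, -0.041 to 0.19 for Oasl2, -0.013 to 0.23 for Gbp2, -0.0100 to 0.30 for Iigp1, -0.042 to 0.094 for Igtp, -0.088 to 0.26 for Cmpk2, -0.25 to 0.16 for Zbp1 and -0.091 to 0.44 for Parp14. Same-numbered libraries of the 2 genotypes deviated together little (correlations from 0.00565 to 0.0961), and 2 of 4 wild-type and 2 of 4 heterozygote-labelled libraries correlated best with their own number. Sex matched by number, with replicates 1 and 4 female and replicates 2 and 3 male in both genotypes. The main fit did not take the numbers to pair the mice. With the replicate block the median of the members was 0.13, with 0 called and 1 at an unadjusted p under 0.05. The term for sex gave 1 as well.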

Other observations

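Some interferon-responsive GTPases and conjugation enzymes outside the 34 members stood above every one of them by level. Tgtp2 measured 1113 ± 271 TPM, Ube2l6, the conjugating enzyme for Isg15, 649 ± 44.0 TPM and Ifi47 633 ± 59.6 TPM (SD over the 8 libraries), against 532 TPM for Iigp1. Between genotypes their log2 fold changes were 0.29 ± 0.24, 0.01 ± 0.10 and 0.02 ± 0.13 (standard errors). Tgtp2 has a near-identical neighbour, Tgtp1, so its counts are uncertain. These genes were picked for their level after the values were seen.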
